A study of Mus musculus with 24 samples.

Results

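The type I interferon response genes described here are 51 mouse genes, chosen by symbol from a written list. All 51 were found among the 55025 gene symbols of the count table, and all 51 were among the 20203 genes kept by the filter on low counts. CD45+CD4+ and CD45+CD8+ cells were sorted separately, both from mouse spleen and from pancreatic tumor, and their RNA was sequenced, with 3 libraries in each of 8 groups and 24 in all. Every animal, drug-treated or not, was TCRα-/-, so all groups lacked an intact T cell receptor alpha chain gene. Each carried an orthotopic tumor, grown in the pancreas from M8 organoids, which are tumor cell clusters kept in culture. Of the 8 groups, 4 received vehicle and 4 LCL161, a mimic of the protein SMAC that drives cIAP1 and cIAP2 to degradation. By the study's design text, mice took 3 oral doses of 75 mg/kg LCL161, the first on day 4 and the others at intervals of 3 days, before harvest on day 12. The extraction protocol instead speaks of 12 days of treatment, and the sources used here do not settle the difference. The sources used here give neither strain nor age, and the groups hold no wild-type mice. Nothing in the labels ties replicates to separate mice, so p-values measure only the spread between these libraries, which may be technical.

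Type I interferons are secreted proteins that bind a receptor made of IFNAR1 and IFNAR2. The receptor's kinases JAK1 and TYK2 activate the transcription factors of the pathway, and STAT2 and IRF9 are parts of the resulting complex, ISGF3. That complex binds the interferon-stimulated response element in promoters and switches on genes whose products sense viral nucleic acid, block viral replication or feed back on the pathway. Interferon gamma uses a separate receptor, and many of these genes respond to both. By role, the 51 genes comprised 3 transcription factors of the response (Irf7, Irf9, Stat2), 17 nucleic acid sensors and their helpers, 18 antiviral effectors, 6 genes of ubiquitin-like modification, ADP-ribosylation and feedback, and 7 other induced genes.

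The promoters are shown because the windows of many of these genes hold a sequence that the list did not use. Promoter windows of 300 bases, from 250 before to 50 after a start site, were taken from RefSeq on build GRCm38.p6 and were matched for 39 of the 51 genes. The core of the response element, spelled GAAA, then any 2 bases, then GAAA, was searched on both strands, and matches may overlap. It was present in 22 of the 39 (56.4%), against 1079 of 27025 genes with a window (4.0%). At least 2 matches in a window were found in 9 of the 39 (23.1%), against 72 of 27025 (0.27%). The stretches below lie before the start site, are written 5′ to 3′ on the strand of the gene, and carry the matches in capitals.
Isg15, chr4:156200855-156200916, minus strand: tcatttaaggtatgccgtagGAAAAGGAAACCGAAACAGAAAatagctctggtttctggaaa
Ifit1, chr19:34640765-34640833, plus strand: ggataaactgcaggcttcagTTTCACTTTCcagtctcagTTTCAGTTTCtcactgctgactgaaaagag
Ifit3, chr19:34583353-34583436, plus strand: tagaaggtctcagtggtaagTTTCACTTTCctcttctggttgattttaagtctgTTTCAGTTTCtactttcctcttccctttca
Bst2, chr8:71537567-71537622, minus strand: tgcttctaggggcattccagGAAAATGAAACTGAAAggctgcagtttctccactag
Stat2, chr10:128270256-128270305, plus strand: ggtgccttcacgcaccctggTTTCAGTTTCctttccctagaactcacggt
Oas1a, chr5:120907526-120907565, minus strand: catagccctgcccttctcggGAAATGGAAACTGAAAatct
Isg15 had 3 matches that overlap each other, Ifit1 and Ifit3 had 2 that stand apart, read on the other strand, and Stat2 had 1, far from its start. The stretch of Ifit3b, at chr19:34607749-34607832, was letter for letter that of Ifit3. In the window of Irf7 and the windows of Irf9 these letters were not found. The start sites of the Irf9 windows lie 414 and 1008 bases after the gene start in the GENCODE M21 annotation. Neither Irf9 window therefore covers that gene start or the bases before it. Ifih1 and Ifitm3 had them only after the start site, and Usp18, Mx1, Oas2, Zbp1 and Ly6a had no entry in the table. In the plot of match positions most matches lie upstream of the start site.

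**Figure D1:**
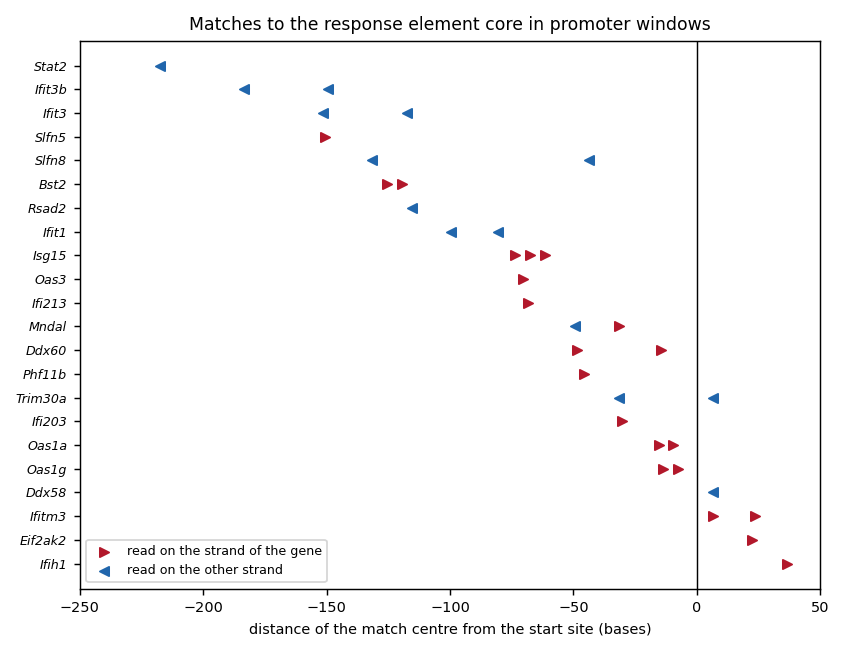
Position of each match to the response element core in the promoter windows of the 22 genes that hold one; the x axis is the distance of the match centre from the start site in bases, and arrowheads give the strand on which the letters are read. Isg15 holds 3 matches, and Stat2 has the most distant.

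Library totals ran from 15455728 to 25145426 counts. Levels are in CPM, a gene's count relative to the scaled library total, given per library or as mean ± SD with n = 3, and log2 fold changes carry their standard error (SE). A gene is called where its adjusted p from edgeR's quasi-likelihood test is under 0.05. T cell markers (8 genes) summed to between 3077 and 7026 CPM in a library, with no marker at 0 in any library. Markers of other cells were present too, with sums from 301 to 6647 CPM for 13 monocyte and macrophage markers, from 245 to 2986 CPM for 9 plasmacytoid dendritic cell markers and from 282 to 10003 CPM for 10 conventional dendritic cell markers, again with none at 0. Sums of 9 B cell and plasma cell markers reached 2353 CPM, of 9 neutrophil markers 1892 CPM, of 6 NK cell markers 1656 CPM and of 8 epithelial and fibroblast markers 317 CPM. In these 4 lists Ngp, Camp, Pax5, Jchain, Klra8, Klra4, Krt8, Krt19, Col3a1 and Dcn were at 0 in some libraries. In such bulk samples, fewer cells of a type and less RNA per cell cannot be told apart.

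Per kilobase of exon, the most abundant members were Ly6a, which encodes the surface protein Sca-1, and Ifi27l2a. In tumor CD8 vehicle libraries Ly6a stood at 1000 CPM per kb, Ifi27l2a at 770 CPM per kb, Bst2, the membrane tether that holds budding virus, at 310.9 CPM per kb and Isg15, a ubiquitin-like protein, at 231.9 CPM per kb. The order began with the same 3 genes in spleen CD4 and spleen CD8 vehicle libraries. At the other end were Mx2 at 1.168, Oas2 at 1.774 and Ifi44 at 3.373 CPM per kb. Over the 24 libraries Mx2 had 1178 counts and Oas2 1760, so fold changes of these 2 genes rest on few counts. Ifi44 had 5788 counts, over 6.13 kb of exon. Pairs of close relatives may share reads. Of the 50-base words of Oas1g, 45.2% also occur in Oas1a, and of those of Ifit3b, 44.5% also occur in Ifit3. The level of Ifit3b was between 0.391 and 0.612 times that of Ifit3 over the 24 libraries. The level of Oas1g was between 0.263 and 0.358 times that of Oas1a. Because of the shared words, each pair is best read as a single uncertain measurement. The ratio alone cannot show that reads are shared. Mndal, with 6.2% of its words in Ifi203, was between 0.956 and 1.493 times the level of Ifi203. Both genes of each pair are included in the counts of genes below. Exons of 9 members, Parp9 and Dtx3l among them, overlap a gene on the opposite strand, and the sources used here do not give the strand setting of the counting.

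To see where the response stood without drug, tumor was compared with spleen in vehicle libraries, beginning with CD8-sorted cells. All 51 genes had a higher mean in the tumor, and 40 were called higher and 0 lower, where 8% of all genes tested were called higher and 6.89% lower. Every tumor library was above every spleen library for 51 of 51 genes, against 25.3% of all genes. The median log2 fold change was 1.48, with a range of 0.31 to 3.65, and over all genes it was 0.03. DESeq2 called 41 higher and 0 lower.

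The largest changes were in antiviral effectors, of which 13 of 18 were called (median 2.03 on the log2 scale). Ifit1, which binds foreign 5′ ends of RNA, had 33.8, 14.3 and 36.4 CPM in spleen and 397, 317 and 335 CPM in tumor. It was 12.4-fold higher (log2 fold change 3.63 ± 0.61, adjusted p = 0.000585), with tumor libraries far above those of spleen. Ifit3b, with 16.8, 6.997 and 21.7 CPM in spleen and 210, 167 and 194 CPM in tumor, was 12.6-fold higher (3.65 ± 0.74, adjusted p = 0.0024). Its neighbor and near copy Ifit3 had 34.2, 15.8 and 47.9 CPM in spleen and 410, 322 and 370 CPM in tumor (3.49 ± 0.71, adjusted p = 0.0024). Both lie in the Ifit cluster of chromosome 19, with Ifit3 at 34583531 to 34588731, Ifit3b at 34607970 to 34613401 and Ifit1 at 34640871 to 34650009 (GRCm38, GENCODE M21). Rsad2, the gene of viperin, which makes a chain-terminating nucleotide, went from 14.3 ± 7.82 to 168 ± 19.4 CPM (3.55 ± 0.74, adjusted p = 0.0028). The GTPase gene Mx1 had 7.46, 8.36 and 10.9 CPM in spleen and 36.3, 32.6 and 22.7 CPM in tumor (1.78 ± 0.55, adjusted p = 0.036). Bst2 had 125, 106 and 131 CPM in spleen and 303, 258 and 281 CPM in tumor (1.22 ± 0.37, adjusted p = 0.030). These genes thus rose without any overlap of libraries. Ifitm3, which blocks viral entry from endosomes, had 39.9, 41.9 and 49.9 CPM in spleen against 66.5, 106 and 92.7 CPM in tumor, also without overlap, and was not called (adjusted p = 0.23).

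Of the nucleic acid sensors and their helpers, 14 of 17 were called (median 1.83). Zbp1, which detects Z-form nucleic acid, had 93.4, 71.2 and 97.3 CPM in spleen and 402, 339 and 328 CPM in tumor (2.03 ± 0.26, adjusted p = 6.6e-05). Ifih1, the sensor MDA5 of long double-stranded RNA, had 20.2, 14.4 and 19.1 CPM in spleen and 65.6, 69.6 and 71.2 CPM in tumor (1.94 ± 0.44, adjusted p = 0.0050). Both sensors had narrow ranges within each tissue. Oas2, an oligoadenylate synthetase that feeds RNase L, was scarce, with 3.53, 2.64 and 1.504 CPM in spleen and 9.37, 6.10 and 8.21 CPM in tumor, and was not called (adjusted p = 0.24). Isg15 had 29.6, 14.04 and 30.0 CPM in spleen and 187, 160 and 179 CPM in tumor (2.84 ± 0.46, adjusted p = 0.000396). Usp18, the protease that removes ISG15 and restrains the receptor, had 79.4, 49.9 and 102 CPM in spleen and 272, 220 and 310 CPM in tumor (1.80 ± 0.50, adjusted p = 0.0198). With these, 5 of 6 genes of the ubiquitin-like group were called (median 1.27), as were 7 of 7 other induced genes (median 1.05). Among the latter, Ly6a had 380, 462 and 454 CPM in spleen and 1104, 1293 and 1220 CPM in tumor (1.48 ± 0.17, adjusted p = 2.8e-05), without overlap.

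The transcription factors had the smallest median of the roles (0.71), with 1 of 3 called. Irf7, the amplifier that is itself induced, had 137, 115 and 170 CPM in spleen and 366, 305 and 379 CPM in tumor (1.32 ± 0.43, adjusted p = 0.043). Stat2 had 82.6, 88.7 and 110 CPM in spleen and 179, 137 and 143 CPM in tumor, and was not called (0.71 ± 0.26, adjusted p = 0.071). Irf9 had 146, 121 and 161 CPM in spleen and 180, 169 and 182 CPM in tumor (0.31 ± 0.19, adjusted p = 0.32). The 11 genes not called were Mx2, Oas2, Oasl1, Irf9, Stat2, Parp14, Ifitm3, Eif2ak2, Samd9l, Slfn5 and Ifi44. Genes with a motif match in their window (22) had a median of 1.64 with 18 called, and those without (17) of 1.32 with 13 called, given as a description only.

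Markers of other cells moved with this comparison. The 13 monocyte and macrophage markers summed to between 3528 and 3981 CPM in tumor CD8 vehicle libraries and between 1016 and 1454 CPM in spleen, with 10 of 13 called higher. Ly6c2 was a large part of these sums, at 1807, 1162 and 1757 CPM in tumor and 892, 694 and 1015 CPM in spleen. Conventional dendritic cell markers went the other way, from sums of 8984 to 10003 CPM in spleen to 821 to 1335 CPM in tumor, with 7 of 10 called lower. B cell and plasma cell markers fell from sums of 1202 to 1548 CPM to 32.4 to 61.6 CPM, with 8 of 9 called lower. T cell markers summed to between 5217 and 6467 CPM in tumor and between 3077 and 3661 CPM in spleen, with 4 of 8 called higher. NK cell markers summed to between 842 and 1656 CPM in tumor and between 152 and 497 CPM in spleen, with 1 of 6 called higher. Gzma made up most of each NK cell sum, at 1292, 714 and 727 CPM in tumor against 105, 377 and 392 CPM in spleen. Klre1 had a higher mean as well, but Ncr1 was lower, at 0.669, 1.10 and 1.66 CPM against 3.62, 4.40 and 7.18 CPM. Of 8 epithelial and fibroblast markers, 7 were called higher and 1 lower. The part of all these markers in the result was not tested. Leaving out each library in turn left between 28 and 35 genes called, all higher.

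In CD4-sorted cells the tumor libraries were higher for fewer of the genes. Of the 51, 45 had a higher mean in the tumor, and 20 were called higher and 0 lower, where 9.67% of all genes were called higher and 6.85% lower. Tumor libraries lay above all spleen libraries for 28 of 51 genes, against 16.9% of all genes, and below them for 0. The median log2 fold change was 0.75 and that of all genes 0.004. At an unadjusted p under 0.05, 27 were higher and 0 lower, against 31.6% of all genes in either direction, and DESeq2 called 22 higher and 0 lower. Of the 20 genes, 19 were also called in CD8-sorted cells (95% of the CD4 list and 47.5% of the CD8 list), and the exception was Ifitm3. The tissue difference in CD8 minus that in CD4 was also tested directly, a comparison added after seeing the data. It was called higher for 3 of the 51 genes and lower for 0, where 1.13% of all genes were called higher and 2.13% lower, with a median of 0.85. The 3 genes were Nmi (0.71 ± 0.14, adjusted p = 0.0114), Ly6a (1.12 ± 0.24, adjusted p = 0.0129) and Ifi203 (0.97 ± 0.24, adjusted p = 0.0327).

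Ifitm3 (chromosome 7, 141009586 to 141010770) had the largest difference, with 26.7, 30.3 and 31.1 CPM in spleen CD4 and 153, 343 and 239 CPM in tumor CD4 (3.06 ± 0.57, adjusted p = 0.0014). Ifit1 had 46.2, 20.4 and 50.6 CPM in spleen and 236, 269 and 259 CPM in tumor (2.71 ± 0.59, adjusted p = 0.0043). Ifit3 had 33.5, 11.2 and 43.9 CPM in spleen and 133, 258 and 177 CPM in tumor (2.68 ± 0.68, adjusted p = 0.012). Replicate 2 was the lowest spleen CD4 vehicle library for both Ifit genes. Isg15 rose from 45.9, 19.5 and 45.4 CPM to 114, 207 and 114 CPM (1.97 ± 0.44, adjusted p = 0.0054), and Usp18 from 55.8, 14.5 and 45.8 CPM to 132, 210 and 76.6 CPM (1.85 ± 0.50, adjusted p = 0.017). Zbp1 rose from 99.8, 84.0 and 103 CPM to 193, 213 and 209 CPM (1.10 ± 0.25, adjusted p = 0.0059). By role, 8 of 18 antiviral effectors, 5 of 17 sensors and helpers, 2 of 6 genes of the ubiquitin-like group and 5 of 7 other induced genes were called. The remaining called genes were Ifit2, Ifit3b, Isg20, Rsad2, Oas3, Ifi35, Dhx58, Xaf1, Cmpk2, Phf11b, Phf11d, Ifi204, Mndal and Nmi.

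No transcription factor of the response was called in CD4-sorted cells. Irf7 had 247, 74.7 and 232 CPM in spleen CD4 and 199, 426 and 213 CPM in tumor CD4, so the groups overlapped (0.60 ± 0.42, adjusted p = 0.34). Stat2 had 124, 64.4 and 119 CPM in spleen and 92.1, 110 and 101 CPM in tumor, and Irf9 168, 112 and 147 CPM in spleen and 150, 182 and 143 CPM in tumor. Bst2, at 360, 105 and 288 CPM in spleen and 163, 295 and 165 CPM in tumor, and Ifih1, at 60.4, 27.8 and 49.0 CPM in spleen and 133, 43.6 and 47.9 CPM in tumor, overlapped as well. Mx1, with 7.09, 2.92 and 7.07 CPM in spleen and 11.2, 13.9 and 12.2 CPM in tumor, and Oas2, with 1.21, 0.694 and 3.59 CPM in spleen and 3.76, 10.8 and 7.14 CPM in tumor, were higher in every tumor library but not called (adjusted p = 0.17 and 0.13). The plot of tissue differences shows these genes beside their values in CD8-sorted cells.

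**Figure D2:**
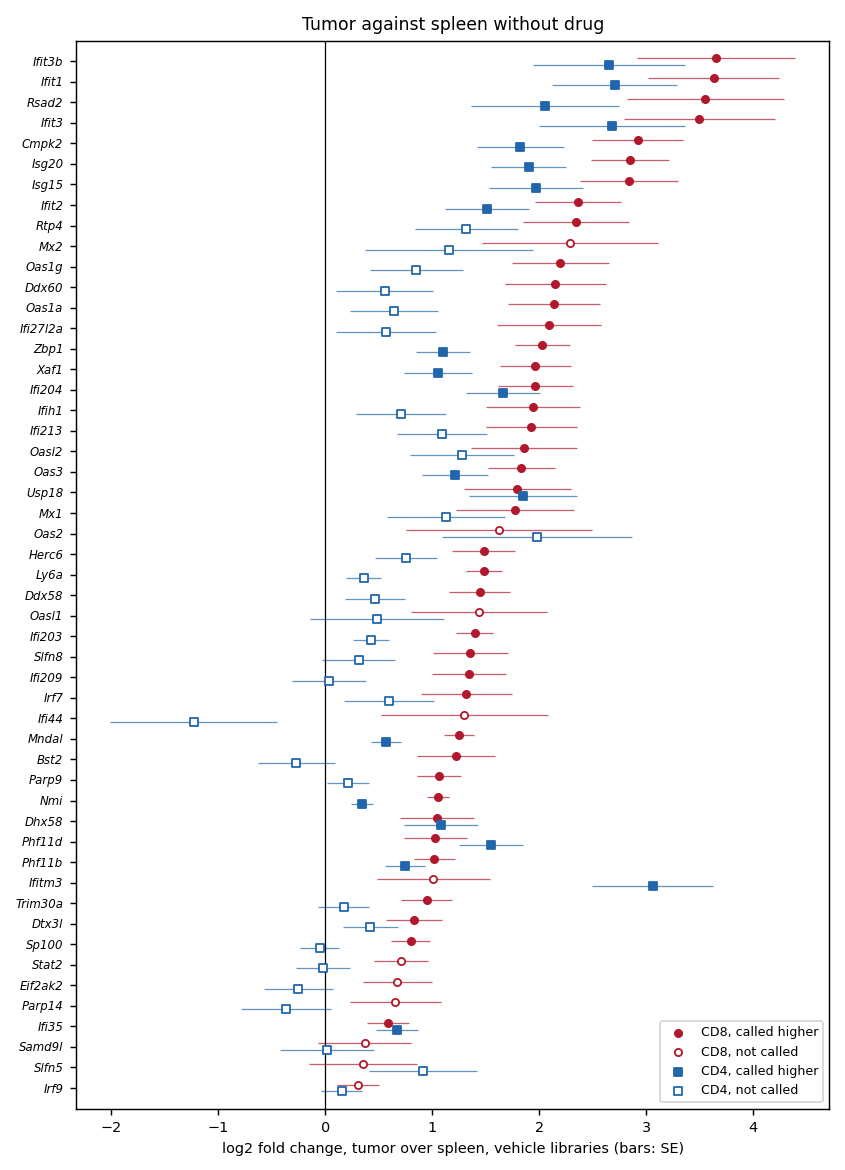
Log2 fold change of each of the 51 genes, tumor over spleen, in vehicle libraries, ordered by the value in CD8-sorted cells; circles are CD8, squares CD4, filled symbols passed the threshold and bars are the SE. All 51 CD8 values lie above 0, from 0.31 to 3.65, and Ifitm3 is the gene with the largest CD4 value, 3.06.

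Monocyte and macrophage markers summed to between 3150 and 6647 CPM in tumor CD4 vehicle libraries and between 525 and 1053 CPM in spleen CD4, with 10 of 13 called higher and 1 lower. Plasmacytoid dendritic cell markers, the signature of the cell type known for making interferon alpha, summed to 2986, 761 and 2297 CPM in replicates 1, 2 and 3 of spleen CD4 vehicle. In tumor CD4 vehicle they summed to between 276 and 949 CPM, with 5 of 9 called lower. Replicate 2 was the lowest of the 3 spleen CD4 vehicle libraries in these markers, and also the lowest of the 3 for 47 of the 51 genes. The same replicate was lowest of the 3 in the sums of every other marker list except T cell markers, where it was highest. B cell and plasma cell markers were called lower in tumor for 8 of 9 and higher for 1, and epithelial and fibroblast markers higher for 5 of 8 and lower for 1. The part of these markers in the result was not tested. Without spleen CD4 vehicle replicate 2 the number of called genes was 10, all higher, and in a fit with only the libraries compared it was 9.

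The difference between tissues was also read in the LCL161 libraries, a comparison added after seeing the data. In CD4-sorted cells 27 genes were higher and 0 lower in tumor (all genes, 10.4% higher), with a median of 0.99. In CD8-sorted cells 19 were higher and 0 lower (all genes, 4.93% higher), 50 of 51 had a higher mean and the median was 1.00. The tissue difference was thus present with and without drug.

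The sorted populations were next compared within a tissue, CD8 against CD4, in vehicle libraries. In the spleen 0 genes were called higher and 4 lower in CD8-sorted cells, where 5.36% of all genes were higher and 6.14% lower, and the median was −0.21. The 4 were Ly6a, Ifi27l2a, Ifih1 and Ifi204. Ly6a (chromosome 15, 74994877 to 74998031) had 1548, 1258 and 1181 CPM in spleen CD4 and 380, 462 and 454 CPM in spleen CD8 (−1.62 ± 0.17, adjusted p = 1.2e-05), without overlap. Ifi27l2a was at 302 ± 80.9 CPM in CD4 and 83.8 ± 33.9 CPM in CD8 (−1.85 ± 0.48, adjusted p = 0.018). Ifih1 had a log2 fold change of −1.35 ± 0.43 (adjusted p = 0.049) and Ifi204, a DNA sensor of the interferon-inducible p200 family, of −1.28 ± 0.35 (adjusted p = 0.021). Ly6a was called whichever single library was left out, while without replicate 1 of spleen CD4, or without replicate 1 or 2 of spleen CD8, it was the only gene of the 51 that was, and without replicate 3 of either it was 1 of 2. Without adjustment, 1 gene was higher (all genes, 12.2%) and 11 lower (13.7%) at a p under 0.05, and DESeq2 called 0 higher and 6 lower. In LCL161 libraries, a comparison added after seeing the data, the median in spleen was 0.14, with 28 of 51 above 0, 3 called higher (all genes, 7.92%) and 4 lower (9.51%). Of the marker lists, 5 of 9 plasmacytoid dendritic cell markers were called lower and 7 of 10 conventional dendritic cell markers higher in CD8-sorted cells of the spleen, and their part was not tested.

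In the tumor 43 of 51 genes had a higher mean in CD8-sorted cells, with a median of 0.57, and 3 were called higher and 0 lower (all genes, 1.7% higher and 2.42% lower). Sp100, a component of nuclear bodies, had 448, 398 and 578 CPM in tumor CD4 and 1008, 760 and 858 CPM in tumor CD8 (0.88 ± 0.18, adjusted p = 0.0090). Nmi, which binds STAT proteins, was at 100 ± 9.11 CPM in CD4 and 139 ± 3.76 CPM in CD8 (0.47 ± 0.10, adjusted p = 0.012). Eif2ak2, the kinase PKR that halts translation, was at 11.8 ± 4.04 and 27.0 ± 3.96 CPM (1.19 ± 0.33, adjusted p = 0.046). CD8 libraries lay above all CD4 libraries for 29 of 51 genes, against 12% of all genes, and below them for 2, Ifitm3 and Ly6a, against 13.8%. Without adjustment, 20 genes were higher (all genes, 8.11%) and 3 lower (11.3%) at a p under 0.05, and DESeq2 called 8 higher and 3 lower. In LCL161 libraries 0 were called higher (all genes, 1.46%) and 1 lower (1.48%), with 37 of 51 above 0 and a median of 0.16. Monocyte and macrophage marker sums of the vehicle groups overlapped (3150 to 6647 CPM in CD4 and 3528 to 3981 CPM in CD8), with 1 of 13 called higher in CD8. The median log2 fold change of the 13 was nevertheless −1.09, so most were lower in CD8. Ly6c2 was a large part of the CD8 sums, at 1807, 1162 and 1757 CPM in CD8 against 134, 262 and 77.8 CPM in CD4. The part of these markers was not tested.

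The question of the study is what LCL161 does in these cells, and in CD4-sorted cells of the spleen edgeR called 0 of the 51 genes, where 0.238% of all genes were called higher and 0.198% lower (0.436% in all). DESeq2 also called 0. At an unadjusted p under 0.05, 2 were higher (all genes, 8.63%) and 6 lower (7.35%), and the median log2 fold change was −0.22, with 35 of 51 below 0. Leaving out each library in turn moved that median between −0.48 (without LCL161 replicate 2) and −0.05 (without LCL161 replicate 1). Isg20, an exonuclease that degrades viral RNA, had 35.5, 25.5 and 36.8 CPM with vehicle against 57.1, 62.2 and 52.6 CPM with LCL161, without overlap (0.81 ± 0.34, adjusted p = 0.26). Ly6a had 1548, 1258 and 1181 CPM with vehicle against 2272, 1631 and 1447 CPM with LCL161 (0.42 ± 0.17, adjusted p = 0.23). Nmi had 78.7, 80.7 and 77.2 CPM with vehicle against 85.1, 81.3 and 93.2 CPM with LCL161 (adjusted p = 0.52). The groups of Isg20 and Nmi did not overlap, as for 7.67% of all genes in that direction, and 0 genes lay wholly lower, against 6.95%. Of the genes that pointed down, Sp100 had 514, 400 and 563 CPM with vehicle against 265, 404 and 359 CPM with LCL161 (adjusted p = 0.18). Ifi209, of the p200 family, had 219, 119 and 247 CPM against 59.2, 148 and 111 CPM (adjusted p = 0.23). Ifi44 had 39.3, 1.68 and 41.1 CPM against 4.71, 9.08 and 6.61 CPM (adjusted p = 0.24), and its vehicle replicate 2 was below every treated library.

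That replicate recurs in the classical genes. Stat2 had 60.7, 80.6 and 66.8 CPM with LCL161, Irf7 125, 125 and 91.0 CPM and Bst2 115, 133 and 159 CPM, each below vehicle replicates 1 and 3. Vehicle replicate 2 was at 64.4, 74.7 and 105 CPM for these genes. Every LCL161 library was above it for Irf7 and Bst2, and for Stat2 only LCL161 replicate 1 was below it. Irf9 stood at 163, 159 and 119 CPM with LCL161, Isg15 at 55.4, 55.2 and 32.8, Usp18 at 40.3, 53.1 and 27.0, Ifit1 at 20.9, 63.8 and 20.7 and Ifit3 at 13.2, 48.1 and 9.495 CPM, all overlapping vehicle. Mx1 was at 4.98, 8.68 and 2.36 CPM, Oas2 at 0.229, 0.08185 and 1.49, Ifih1 at 26.7, 61.8 and 40.5, Zbp1 at 123, 96.9 and 80.4 and Ifitm3 at 17.9, 20.1 and 62.3 CPM, again overlapping vehicle. Plasmacytoid dendritic cell markers summed to between 595 and 1179 CPM with LCL161 and between 761 and 2986 CPM with vehicle, with 0 of 9 called and a median of −1.39. Monocyte and macrophage markers summed to between 301 and 912 CPM with LCL161 and between 525 and 1053 CPM with vehicle. Of these, 1 of 13 was called lower, with a median of −0.985. Conventional dendritic cell markers had 0 of 10 called and a median of −0.61. Neutrophil markers summed to 195, 767 and 1892 CPM in replicates 1, 2 and 3 with LCL161 and to 56.4, 36.1 and 487 CPM with vehicle, with 0 of 9 called. The part of these markers was not tested.

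CD8-sorted cells of the spleen gave the only called changes within a single population. Nmi (chromosome 2, 51948487 to 51973494) had 70.2, 61.1 and 69.7 CPM with vehicle against 86.6, 95.9 and 111 CPM with LCL161, 1.46-fold higher (0.55 ± 0.10, adjusted p = 0.0045). Ly6a had 380, 462 and 454 CPM with vehicle against 786, 674 and 825 CPM with LCL161, 1.76-fold higher (0.82 ± 0.17, adjusted p = 0.0076). Neither gene had overlapping groups. With 2 of 51 genes called higher, where 4.11% of all genes were, and 0 lower, where 4.22% were, the share of the list was no larger than that of all genes (8.33% in either direction). At an unadjusted p under 0.05, 4 were higher (all genes, 13.4%) and 1 lower (11.6%), and DESeq2 called the same 2 genes. Without LCL161 replicate 3 or vehicle replicate 1, Ly6a was no longer called (adjusted p = 0.060 and 0.054).

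The other members in spleen CD8 pointed both ways, with a median of 0.06 against 0.07 over all genes. Isg20 had 14.2, 13.8 and 20.7 CPM with vehicle against 13.5, 28.4 and 50.6 CPM with LCL161, a wide spread that overlapped vehicle (0.93 ± 0.34, adjusted p = 0.10). Stat2 (chromosome 10, 128270559 to 128292849) had 82.6, 88.7 and 110 CPM with vehicle against 57.9, 64.3 and 58.2 CPM with LCL161 (−0.64 ± 0.26, adjusted p = 0.13). Its groups did not overlap, but the difference was not called. Parp14, an ADP-ribosyltransferase, had 117, 98.8 and 109 CPM against 101, 41.5 and 56.5 CPM (adjusted p = 0.31), and Slfn5, of the Schlafen family, 95.4, 73.7 and 106 CPM against 32.5, 72.5 and 48.5 CPM (adjusted p = 0.32). LCL161 libraries were above all vehicle libraries for 4 of 51 genes (all genes, 21.1%) and below them for 5 (17.8%).

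Among the classical genes in spleen CD8, replicate 1 of LCL161 was the lowest library of its group for most. Isg15 had 19.4, 32.6 and 48.1 CPM with LCL161, Ifit1 19.5, 55.3 and 91.4 CPM and Ifit3 31.9, 65.4 and 96.9 CPM. Irf7 stood at 95.7, 147 and 159 CPM, Irf9 at 126, 146 and 139, Usp18 at 59.9, 87.9 and 91.2, Mx1 at 3.95, 11.1 and 9.03 and Oas2 at 1.25, 1.86 and 1.42 CPM. Ifih1 was at 12.7, 16.3 and 22.0 CPM, Zbp1 at 94.9, 85.1 and 119, Bst2 at 106, 129 and 133 and Ifitm3 at 10.8, 34.3 and 27.3 CPM. Of these only Ifitm3 did not overlap vehicle, below which all of its libraries lay (adjusted p = 0.33). Conventional dendritic cell markers summed to between 8984 and 10003 CPM with vehicle and between 1077 and 4936 CPM with LCL161 in these cells, with 3 of 10 called lower. T cell markers summed to between 4063 and 4972 CPM with LCL161 and between 3077 and 3661 CPM with vehicle, with 2 of 8 called higher. NK cell markers summed to between 532 and 1439 CPM with LCL161 and between 152 and 497 CPM with vehicle, and B cell and plasma cell markers to between 797 and 1186 CPM against 1202 to 1548 CPM, with 0 called in either list. Sums of these 4 lists did not overlap between treatments. Gzma made up most of each NK cell sum, at 413, 445 and 1219 CPM with LCL161 against 105, 377 and 392 CPM with vehicle. Klre1 had a higher mean as well, but Ncr1 a lower one, at 2.45, 3.95 and 2.80 CPM against 3.62, 4.40 and 7.18 CPM. The part of these markers in the differences was not tested.

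In CD4-sorted tumor cells edgeR called 0 of the 51 genes, where 0.114% of all genes were called higher and 0.193% lower (0.307% in all). At an unadjusted p under 0.05, 3 were higher (all genes, 5.65%) and 2 lower (8.46%), and the median was −0.06. Mndal (chromosome 1, 173849126 to 173942491), a nuclear protein gene of the p200 family, came nearest. It had vehicle levels of 166, 163 and 193 CPM and LCL161 levels of 262, 251 and 298 CPM, without overlap (0.64 ± 0.14, adjusted p = 0.056), and DESeq2 called it (adjusted p = 0.0016), as its only call. Ifi203, its neighbor, with which it shares exon bases, had 156, 131 and 189 CPM with vehicle against 176, 218 and 247 CPM with LCL161 (0.43 ± 0.17, adjusted p = 0.25). Nmi had 106, 89.6 and 105 CPM against 110, 126 and 134 CPM (0.30 ± 0.10, adjusted p = 0.18). Only Mndal and Nmi had LCL161 libraries wholly above vehicle, 2 of 51 genes, against 7.19% of all genes, and 0 lay wholly below, against 8.11%. Ifi204, of the same family, had 118, 79.8 and 44.3 CPM against 37.9, 47.9 and 55.6 CPM (adjusted p = 0.30). Oasl1 had 19.97, 52.6 and 10.2 CPM against 3.85, 6.06 and 21.5 CPM (adjusted p = 0.33), and Ifi44 13.6, 18.0 and 3.49 CPM against 6.20, 4.34 and 2.24 CPM (adjusted p = 0.43).

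The 3 LCL161 libraries of tumor CD4 stood far apart. Replicate 3 was the highest for 47 of 51 genes and replicate 1 the lowest for 47. Ifit1 had 97.8, 217 and 414 CPM in replicates 1, 2 and 3, Ifit3 48.1, 136 and 278 CPM, Isg15 73.5, 110 and 237 CPM and Usp18 53.3, 85.8 and 211 CPM. The vehicle libraries of each lay inside that range. Irf7 had 118, 138 and 320 CPM, Stat2 50.7, 74.1 and 121, Irf9 113, 158 and 205, Mx1 3.94, 8.67 and 23.2, Oas2 1.03, 1.78 and 7.17, Zbp1 122, 164 and 310 and Bst2 134, 125 and 306 CPM. Ifitm3 spanned 159, 92.5 and 499 CPM, and Ifih1 had 26.3, 70.5 and 67.0 CPM. Ly6a kept to 1300, 1684 and 1749 CPM. The median coefficient of variation was 0.471 over the 51 genes and 0.187 over all genes in this group. Without replicate 3 the median log2 fold change of the list was −0.61, and without replicate 1 it was 0.21, with 0 genes called either way. Monocyte and macrophage markers summed to 1525, 1188 and 2029 CPM in the 3 LCL161 libraries and to between 3150 and 6647 CPM with vehicle, with 1 of 13 called lower and a median of −1.90. Plasmacytoid dendritic cell markers summed to between 245 and 288 CPM with LCL161 and between 276 and 949 CPM with vehicle. Of these, 0 of 9 were called, with a median of −1.54. Conventional dendritic cell markers had 0 of 10 called and a median of −1.33. Epithelial and fibroblast markers summed to 106, 87.01 and 262 CPM in LCL161 replicates 1, 2 and 3, highest in replicate 3, and to between 92.7 and 317 CPM with vehicle. The part of these markers was not tested.

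**Figure D3:**
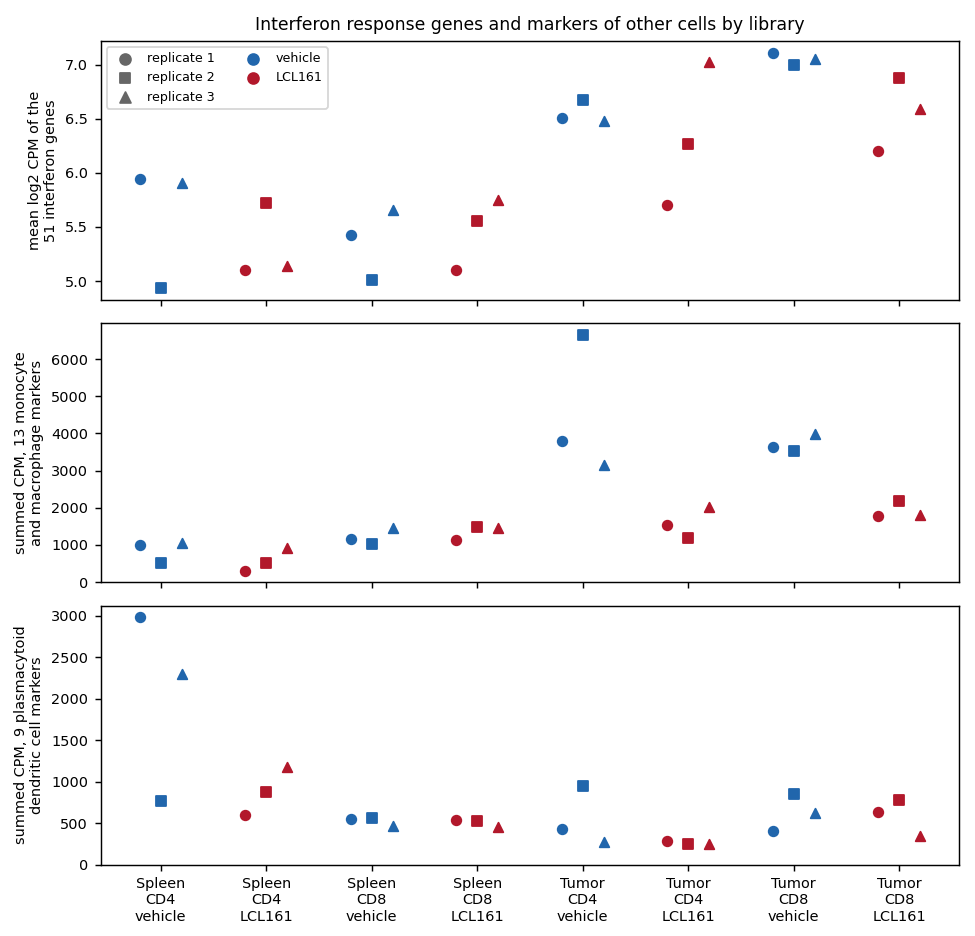
Mean log2 CPM of the 51 genes (top), and summed CPM of 13 monocyte and macrophage markers (middle) and 9 plasmacytoid dendritic cell markers (bottom), for each of the 24 libraries; blue is vehicle, red LCL161, and symbol shapes give the replicate number. The 3 tumor CD8 vehicle libraries lie together near 7 in the top panel, and the 3 tumor CD4 LCL161 libraries run from 5.71 to 7.02.

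CD8-sorted tumor cells showed the most even shift with LCL161, and no call. Of 51 genes, 48 had a lower mean with the drug, with a median of −0.43 against 0.003 over all genes, and 0 were called by edgeR or DESeq2. Of all genes, edgeR called 0.233% higher and 0.0148% lower (0.247% in all). Every LCL161 library lay below every vehicle library for 26 genes, against 11.9% of all genes, and above for 0, against 11.7%. At an unadjusted p under 0.05, 6 were lower (all genes, 5.05%) and 0 higher (5.73%). The shift was shared by the roles: medians were −0.51 for antiviral effectors, −0.44 for the ubiquitin-like group, −0.39 for transcription factors, −0.36 for sensors and −0.22 for other induced genes.

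Zbp1 (chromosome 2, 173206612 to 173218923) had the smallest p, with 402, 339 and 328 CPM with vehicle against 182, 235 and 245 CPM with LCL161 (−0.69 ± 0.25, adjusted p = 0.31). Cmpk2, a mitochondrial nucleotide kinase gene next to Rsad2, had 255, 245 and 236 CPM against 101, 141 and 141 CPM (−0.94 ± 0.40, adjusted p = 0.39). Oasl2 had 73.2, 87.3 and 118 CPM against 23.7, 64.0 and 38.2 CPM (−1.14 ± 0.49, adjusted p = 0.40). All 3 had groups apart, and none was called. In a fit with only the libraries compared Cmpk2 was called (−0.94, adjusted p = 0.034) and 25 of the 51 genes were under an unadjusted p of 0.05, against 19.2% of all genes in that fit. The 3 genes above 0 were Isg20 (112, 108 and 131 CPM against 96.6, 153 and 140 CPM), Ddx60 (55.7, 68.2 and 55.9 CPM against 52.2, 66.8 and 68.5 CPM) and Dhx58 (74.2, 68.7 and 71.2 CPM against 47.1, 94.0 and 76.1 CPM), the latter both helpers of RNA sensing. Each of them overlapped vehicle.

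Of the classical genes, Isg15 had 102, 154 and 127 CPM with LCL161, Stat2 96.5, 129 and 99.7, Bst2 194, 257 and 176, Oas2 0.299, 5.03 and 2.64 and Ifitm3 51.7, 57.2 and 44.4 CPM, each below all vehicle libraries. Ifit1, at 189, 325 and 271 CPM, Ifit3, at 161, 352 and 269 CPM, Irf7, at 187, 373 and 240 CPM, Irf9, at 136, 187 and 167 CPM, and Usp18, at 154, 258 and 175 CPM, overlapped vehicle through replicate 2. Mx1, at 10.04, 24.5 and 18.0 CPM, overlapped as well, Ifih1, at 42.8, 67.7 and 53.9 CPM, also reached the vehicle range, and Ly6a, at 1180, 1330 and 1086 CPM, overlapped throughout (−0.01 ± 0.17). Replicate 1 was the lowest LCL161 library for 46 of 51 genes and replicate 2 the highest for 41. Without replicate 1 the median was −0.31, and it stayed below 0 whichever library was left out. Monocyte and macrophage markers summed to between 1779 and 2186 CPM with LCL161 and between 3528 and 3981 CPM with vehicle, without overlap, with 0 of 13 called and a median of −1.15. Ly6c2 was a large part of these sums, at 842, 982 and 863 CPM with LCL161 against 1807, 1162 and 1757 CPM with vehicle. The part of these markers in the shift was not tested.

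**Figure D4:**
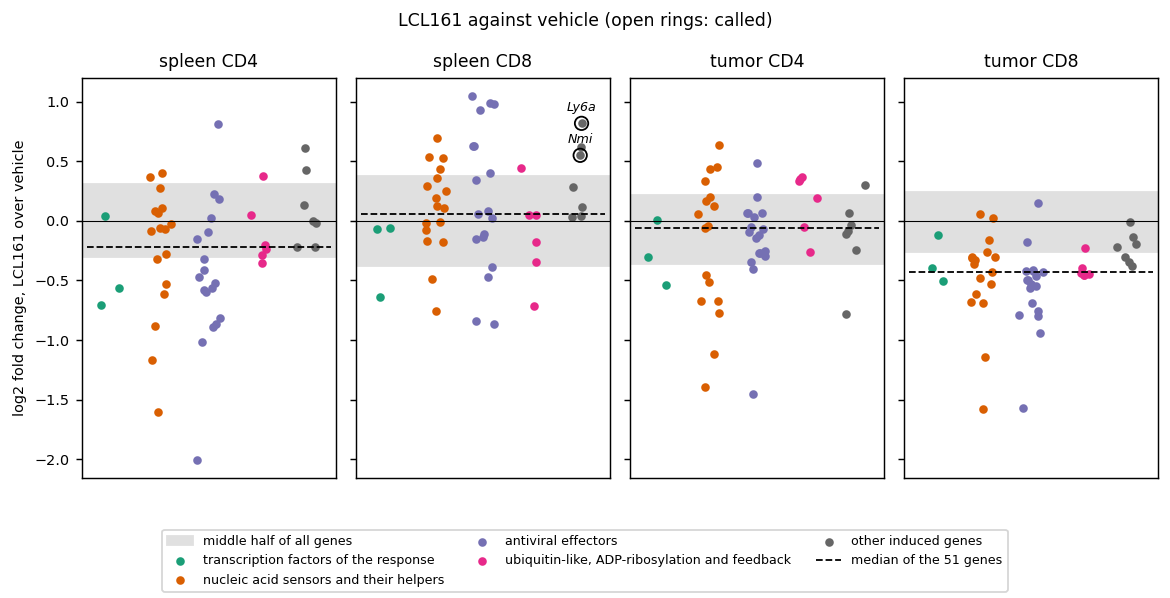
Log2 fold change of the 51 genes, LCL161 over vehicle, in the 4 sorted populations, colored by role; the dashed line is the median of the 51 genes, the gray band spans the first to the last quartile boundary of all genes tested and rings mark called genes. Nmi and Ly6a in spleen CD8 are the called genes, and in tumor CD8 the median is −0.43.

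Averaged over the 4 populations, levels with LCL161 were called higher for 3 and lower for 2 of the 51 genes, where 9.75% of all genes were called higher and 8.99% lower. The higher genes were Isg20 (0.59 ± 0.17, adjusted p = 0.021), Ly6a (0.28 ± 0.08, adjusted p = 0.025) and Nmi (0.19 ± 0.05, adjusted p = 0.014). Isg20 was above 0 in each of the 4 populations, at 0.81, 0.93, 0.48 and 0.15. The lower genes were Stat2 (−0.50 ± 0.13, adjusted p = 0.011), which was below 0 in each, at −0.56, −0.64, −0.30 and −0.50, and Ifi44 (−1.35 ± 0.40, adjusted p = 0.024), at −2.01, −0.39, −1.45 and −1.57. The values follow the order spleen CD4, spleen CD8, tumor CD4, tumor CD8. Nmi and Ly6a were not higher in every population. In tumor CD8, Nmi had 135, 139 and 142 CPM with vehicle against 118, 119 and 121 CPM with LCL161, wholly lower. Ly6a overlapped in tumor CD4, at 2010, 1472 and 1627 CPM with vehicle against 1300, 1684 and 1749 CPM with LCL161. It also overlapped in tumor CD8, at 1104, 1293 and 1220 CPM against 1180, 1330 and 1086 CPM. The ISGF3 partner of Stat2, Irf9, had a mean of −0.03 ± 0.10 (adjusted p = 0.86). With 5 of 51 genes called in either direction and 18.7% of all genes, the share of the list was smaller than that of all genes. At an unadjusted p under 0.05, 4 were higher (all genes, 16.6%) and 7 lower (16%). In the same mean, 10 of 13 monocyte and macrophage markers were called lower. So were 5 of 10 conventional and 2 of 9 plasmacytoid dendritic cell markers, with 0 called higher in these lists. Of 8 T cell markers, 4 were called higher and 2 lower, and of 9 neutrophil markers 1 was called higher. B cell and plasma cell markers had 2 of 9 called lower, epithelial and fibroblast markers 2 of 8, and NK cell markers 0 of 6 called. The part of all these markers was not tested. The call of Ly6a was lost without spleen CD4 vehicle replicate 3, spleen CD8 LCL161 replicate 3, spleen CD8 vehicle replicate 1, tumor CD4 LCL161 replicate 2 or tumor CD8 vehicle replicate 1 (adjusted p 0.050 to 0.056), and the number of called genes was 10 without spleen CD4 vehicle replicate 2 and 13 without tumor CD4 LCL161 replicate 3.

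Whether the drug acted differently between tissues or populations was tested directly, and edgeR called 0 of the 51 genes in each of the 4 differences. All genes were called at 0.0099% for tumor against spleen in CD4, 0.0247% in CD8, 0.247% for CD8 against CD4 in spleen and 0% in tumor. The counts of the 51 genes at an unadjusted p under 0.05 were 7, 5, 5 and 5 (all genes, 10.3%, 9.04%, 12.1% and 5.57%), and DESeq2 called 0, 1, 0 and 1. The smallest adjusted p belonged to Nmi in CD8-sorted cells, where the effect in tumor minus that in spleen was −0.77 ± 0.14 (adjusted p = 0.064), next to −0.83 ± 0.24 for Ly6a (adjusted p = 0.27). In the tumor the effect on Mndal in CD8 minus that in CD4 was −0.90 ± 0.20 (adjusted p = 0.55), and in CD4-sorted cells its effect in tumor minus that in spleen was 0.70 ± 0.20 (adjusted p = 0.26). In the spleen the effect on Nmi in CD8 minus that in CD4 was 0.42 ± 0.14 (adjusted p = 0.23).

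The heat map of all 51 genes over the 24 libraries shows these comparisons side by side, with the tissue boundary as the clearest step.

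**Figure D5:**
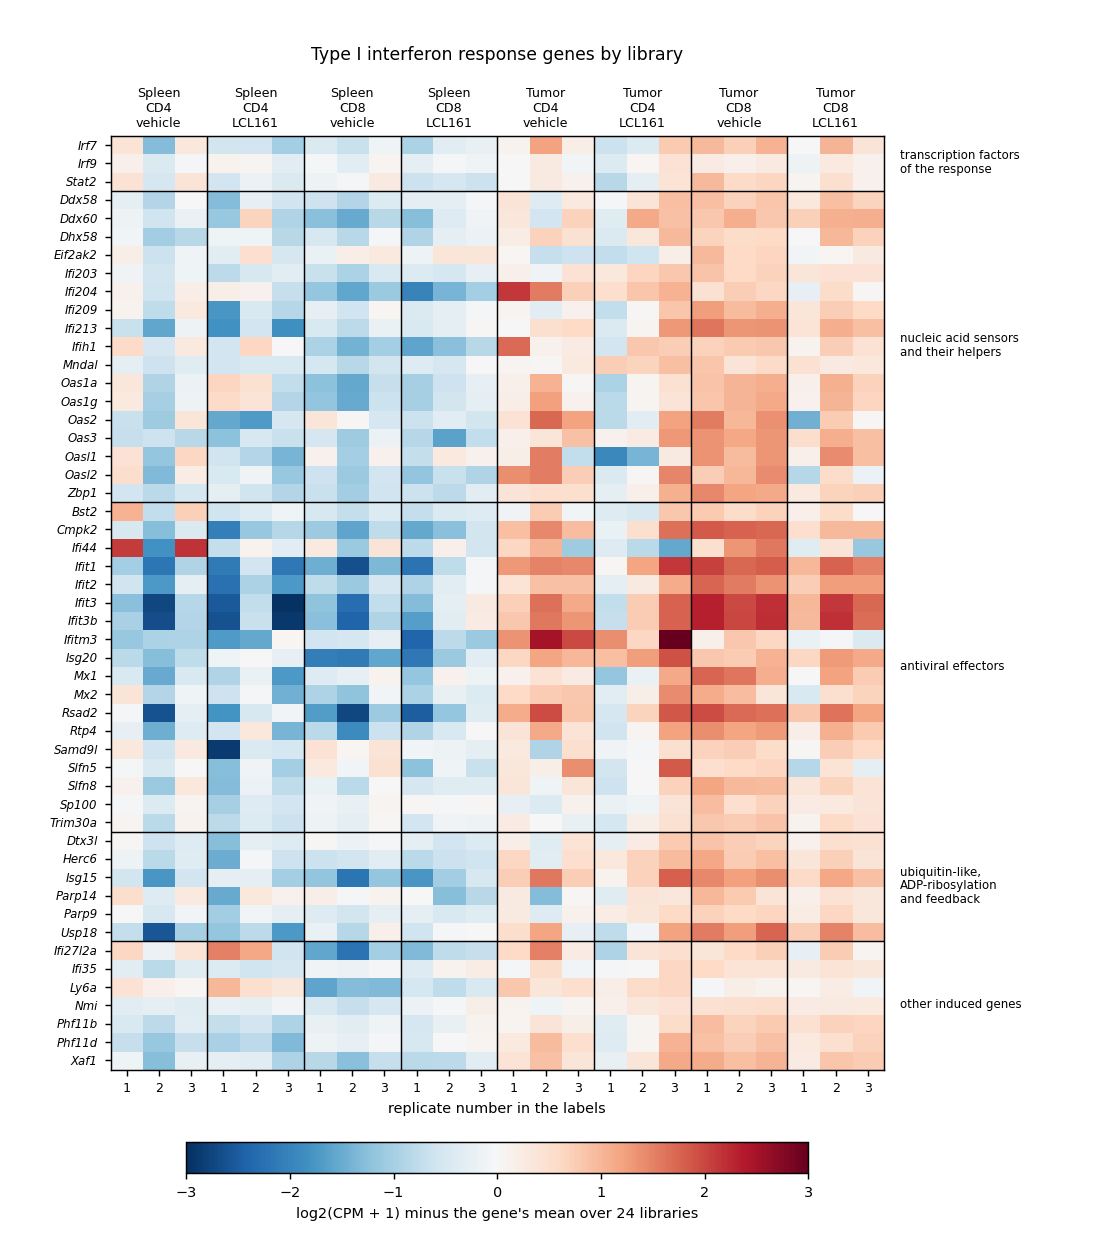
Level of each of the 51 genes (rows, grouped by role) in each of the 24 libraries (columns, grouped by tissue, population and treatment), as log2(CPM + 1) minus the gene's mean over the 24 libraries, from blue (low) to red (high). Tumor CD8 vehicle libraries are the most even block of high values, and replicate 2 of spleen CD4 vehicle is low for 47 of 51 genes within its group.

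Upstream of these genes lie the ligands. Of 18 type I ligand genes listed, 13 had no count in any library, which at these depths allows at most 0.12 to 0.196 CPM per library, and the limit covers counting error only. Ifnb1 had 12 counts, all in replicate 1 of spleen CD4 vehicle (0.582 CPM). Ifna1 and Ifna13 had 0.5 counts each, Ifnab 5 and Ifnz 53.4 counts over all libraries. The type III genes Ifnl2 and Ifnl3 had none. Interferon gamma was the ligand that passed the filter: Ifng was higher in tumor than in spleen in CD8-sorted vehicle cells, with 10.3 ± 4.05 CPM in spleen and 64.4 ± 18.2 CPM in tumor (2.64 ± 0.67, adjusted p = 0.011). In CD4-sorted cells it was at 36.5, 49.6 and 32.4 CPM in spleen and at 290, 64.3 and 67.6 CPM in tumor, where replicate 1 stood far above the other libraries (1.83 ± 0.65, adjusted p = 0.059). With LCL161 it rose in spleen CD8 (2.63 ± 0.67, adjusted p = 0.023). Nmi and Ly6a rose in the same population, and any link between these changes was not tested. In tumor CD8, Ifng was at 64.4 CPM with vehicle and 70.6 CPM with LCL161 (adjusted p = 0.98).

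Receptor and signalling genes were measured as well. Ifnar1, a receptor chain, was lower in tumor than in spleen CD4 (−0.66 ± 0.14, adjusted p = 0.0044) and higher in CD8 than in CD4 within the tumor (0.89 ± 0.14, adjusted p = 0.0019), as was Il10rb, a chain of the type III receptor (0.85 ± 0.22, adjusted p = 0.035). Ifnar2 was called lower in the mean over populations (−0.47 ± 0.11, adjusted p = 0.0075), and its tumor CD4 libraries held 89.7, 149 and 88.1 CPM with vehicle against 54.6, 63.6 and 68.5 CPM with LCL161 (−0.81 ± 0.22, adjusted p = 0.11). Between tissues, Ifngr1 was higher (2.12 ± 0.33) and Jak2 lower (−1.29 ± 0.35) in tumor CD4, and Ifngr2 lower in tumor CD8 (−1.37 ± 0.39). With LCL161, Tyk2 was lower in spleen CD8 (−0.61 ± 0.16, adjusted p = 0.027) and Ifngr2 in the mean (−0.59 ± 0.19, adjusted p = 0.038). In the spleen Ifngr1 was higher in CD8 than in CD4 (1.21 ± 0.32, adjusted p = 0.019).

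Of the genes that induce interferon (15 listed, 15 tested), 0 were called higher and 5 lower in tumor than in spleen in CD8-sorted cells, where 8% of all genes were higher and 6.89% lower, and the median of the 15 was 0.04. The 5 were Tlr3, an endosomal RNA receptor (−3.40 ± 0.57), Irf5 (−2.06 ± 0.37), Irf8 (−1.79 ± 0.55), Ticam1 (−0.80 ± 0.21) and Myd88 (−0.63 ± 0.14). Irf8 and Tlr3 are also known from dendritic cells, whose markers were lower in the same libraries, as given above, and their part was not tested. In CD4-sorted cells Irf1 was the 1 gene called, lower in tumor (−0.65 ± 0.18). In the spleen CD8 exceeded CD4 for Tlr3 (4.77 ± 0.61), Irf5 (1.37 ± 0.36) and Myd88 (0.55 ± 0.14), and was below it for Tlr7 (−1.78 ± 0.55) and Tmem173, the adaptor STING (−0.77 ± 0.19). In tumor Irf1 was higher in CD8 than in CD4 (0.84 ± 0.18). With LCL161, levels were lower for Tlr3 (−1.90 ± 0.53) and Ticam1 (−0.69 ± 0.21) in spleen CD8. In the mean over populations they were higher for Tmem173 (0.46 ± 0.09) and Ikbke (0.51 ± 0.10) and lower for Mavs (−0.27 ± 0.08), Irf8 (−1.07 ± 0.27), Tlr3 (−0.86 ± 0.27) and Tlr9 (−1.09 ± 0.34). Conventional dendritic cell markers were also lower with LCL161 in spleen CD8 (3 of 10 called). They were higher in spleen CD8 than in spleen CD4 (7 of 10 called). The part of these markers in the differences of Tlr3 was not tested.

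Of 6 genes that restrain the pathway, Socs1 and Socs3, which block JAK signalling, were called with LCL161 in the spleen. Socs1 had 78.4, 96.2 and 84.9 CPM with vehicle against 294, 176 and 190 CPM with LCL161 in CD4 (1.35 ± 0.21, adjusted p = 0.010), and 76.8, 57.3 and 70.0 CPM against 110, 136 and 146 CPM in CD8 (0.94 ± 0.20, adjusted p = 0.0095). Socs3 was higher in spleen CD4 (1.39 ± 0.25, adjusted p = 0.025) and in spleen CD8 (0.96 ± 0.24, adjusted p = 0.023). Neither was called in the tumor. Socs1 was itself higher in tumor than in spleen with vehicle, in CD4 (1.13 ± 0.20, adjusted p = 0.0011) and in CD8 (1.56 ± 0.21, adjusted p = 9.7e-05). In the mean over populations Socs1 (0.45 ± 0.10) and Socs3 (0.61 ± 0.12) were higher and Trex1, a DNA exonuclease, lower (−0.36 ± 0.12).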

How the data were processed

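The submitters' processing notes name cutadapt, STAR 2.7.3a and the build GRCm38. Which tool counted reads, on which annotation and with what strand setting, the sources used here do not say. The authors deposited 1 table of expected counts per gene for the 24 libraries, in which 52.7% of non-zero values are not whole; they were rounded here to whole counts. All columns matched a sample. No replicate pair agreed within counting error (chi-square per gene of at least 13.01), so none was merged.

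Genes were filtered with filterByExpr (minimum count 10), scaled by TMM (factors 0.94 to 1.05) and fitted with edgeR 4.0.16 in R 4.3.3 (robust quasi-likelihood, a mean per group, all 24 libraries, 16 residual degrees of freedom). Benjamini-Hochberg adjustment ran over the 20203 genes in each of 13 contrasts. The script was tested on simulated data. Levels are CPM on scaled library sizes, and log2 CPM used a prior count of 2.

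Deviations from group means of same-numbered libraries correlated above 0.1 in every pair only for tumor against spleen in CD8 with LCL161 (0.112 to 0.165), out of 12 pairs of groups, so the numbers were taken to pair libraries in that comparison alone.

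Alternatives were RLE scaling, no filter, DESeq2 1.42.0, a replicate block, a fit on only the compared libraries, leaving out each library, and, added after seeing the data, LCL161 libraries in place of vehicle, also with a replicate block. Coordinates and exon lengths came from GENCODE M21, which held all 51 genes, and promoters from RefSeq.

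The members, lists and tests were chosen with earlier results of these data known. Named are a fixed panel (Irf7, Irf9, Stat2, Isg15, Usp18, Ifit1, Ifit3, Mx1, Oas2, Ifih1, Zbp1, Bst2, Ifitm3, Ly6a), in each LCL161 contrast the 3 members of smallest p each way with at least 5 CPM and every called member, in contrasts of tissue or population the 3 largest called changes each way, and called pathway genes, of which 1 is not reported here. Exceptions to this rule, chosen after their values were seen, are Ifit3b and Oas1a as near copies, further called members and genes not called that are listed by name.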

Additional observations from a re-analysis of the deposited data

How the results depend on the processing

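Direction and call of the counts were the same under most settings, and the following counts of called genes moved by more than 1.5 times; the cause was not tested. With no filter the mean over populations had 3 called genes instead of 5, without Ly6a and Nmi. With DESeq2 the count was 1 instead of 0 for LCL161 in tumor CD4, 11 instead of 3 for CD8 against CD4 in vehicle tumor, and 1 instead of 0 for the differences of LCL161 effect between tissues in CD8 and between populations in tumor. With only the libraries compared it was 4 instead of 2 for LCL161 in spleen CD8, 1 instead of 0 in tumor CD8, 9 instead of 20 for tumor against spleen in CD4, 8 instead of 4 for CD8 against CD4 in spleen and 1 instead of 0 for the difference between tissues in CD8. With LCL161 libraries in place of vehicle it was 19 instead of 40 for tumor against spleen in CD8, 7 instead of 4 for CD8 against CD4 in spleen and 1 instead of 3 in tumor, where Nmi turned from 0.47 to −0.0476 (adjusted p = 0.91). The median for CD8 against CD4 in spleen turned from −0.21 to 0.14. RLE scaling moved none of these counts past that limit.

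Leaving out each library in turn gave 4 to 13 called genes for the mean, 10 to 18 for tumor against spleen in CD4, 28 to 35 in CD8, 1 to 6 for CD8 against CD4 in spleen, 1 to 5 in tumor, 1 to 3 for LCL161 in spleen CD8, 0 to 1 in tumor CD4 (Mndal without tumor CD4 vehicle replicate 3, adjusted p = 0.028) and 0 to 1 for the difference between tissues in CD8 (1 without spleen CD8 LCL161 replicate 1). CD8 against CD4 in tumor had 5 without tumor CD4 vehicle replicate 3 and 1 without tumor CD8 vehicle replicate 1, and in spleen 6 without spleen CD4 vehicle replicate 2.

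Groups share replicate numbers in the labels. In 11 of 12 pairs of groups, same-numbered libraries did not all correlate above 0.1 (−0.167 to 0.111 between deviations from group means). The numbers were not taken to pair those libraries, although a weaker pairing cannot be told from these values. Correlations were all above 0 for tumor against spleen in vehicle CD8 (0.015 to 0.062) and LCL161 CD4 (0.005 to 0.111). The same held for CD8 against CD4 in vehicle spleen (0.041 to 0.085). The exception, tumor against spleen in CD8 with LCL161, had 18 called genes with the block and 19 without it; in a fit of its 6 libraries alone it had 36 with the block and 31 without it. With a replicate block the counts were 38 and 19 for tumor against spleen in CD8 and CD4, 4 and 4 for CD8 against CD4 in spleen and tumor, 7 for the mean, 2 for LCL161 in spleen CD8 and 1 for LCL161 in tumor CD4, which was Mndal (adjusted p = 0.036). Depth limits the scarce genes Mx2 and Oas2 most, with 1178 and 1760 counts in all, followed by Ifi44 with 5788.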

Other observations

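The mean log2 CPM of the 51 genes separated libraries within groups as well as between them. In replicates 1, 2 and 3 it was 5.95, 4.94 and 5.90 in spleen CD4 vehicle, 5.10, 5.72 and 5.14 in spleen CD4 LCL161, 5.43, 5.01 and 5.65 in spleen CD8 vehicle and 5.11, 5.56 and 5.75 in spleen CD8 LCL161. In the tumor it was 6.51, 6.67 and 6.48 in CD4 vehicle, 5.71, 6.26 and 7.02 in CD4 LCL161, 7.11, 6.996 and 7.05 in CD8 vehicle and 6.20, 6.87 and 6.59 in CD8 LCL161. The LCL161 libraries numbered 1 had the lowest mean of their group in each of the 4 populations, and the vehicle libraries numbered 2 in spleen CD4, spleen CD8 and tumor CD8. The labels do not say whether a number marks a mouse, a day or a pool.

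The 51 genes varied more between replicates than a typical gene in 7 of the 8 groups. The median coefficient of variation was 0.349 for the 51 genes and 0.278 for all genes in spleen CD4 LCL161, 0.322 and 0.201 in spleen CD4 vehicle, 0.219 and 0.195 in spleen CD8 LCL161 and 0.197 and 0.126 in spleen CD8 vehicle. In the tumor it was 0.264 and 0.261 in CD4 vehicle and 0.204 and 0.184 in CD8 LCL161. Tumor CD8 vehicle was the exception, with 0.107 for the 51 genes and 0.137 for all genes.

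In CD4-sorted cells the genes with a motif match in their promoter window (22) had a median tumor over spleen log2 fold change of 0.73 with 9 called, and those without (17) of 0.60 with 7 called. The plasmacytoid dendritic cell markers and Bst2, which those cells are known to carry at high level, were highest in the same libraries of spleen CD4 vehicle, with sums of 2986, 761 and 2297 CPM for the markers and 360, 105 and 288 CPM for Bst2. Replicate 2 was also lowest in that group for the sums of the other marker lists, except T cell markers. Monocyte and macrophage markers summed to 989, 525 and 1053 CPM and conventional dendritic cell markers to 716, 334 and 717 CPM. T cell markers were highest in replicate 2, at 4737, 5152 and 3782.5 CPM in replicates 1, 2 and 3. The part of any of these cells in the Bst2 levels was not tested.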
